A study of Columba livia with 12 samples.

Results

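Axon guidance ligands and receptors are the secreted or cell-surface cues, and the membrane proteins that read them, by which growing nerve fibres, vessels and migrating cells find their way. Here they were chosen by gene symbol and a lowest mean level. Taken were the mRNA genes whose symbol in the RefSeq pigeon annotation begins with SEMA, PLXN, NRP, EFNA, EFNB, EPHA, EPHB, SLIT, ROBO, NTN or UNC5. Their mean over the libraries used had to be at least 0.5 TPM. The rule found 52 of the 12918 mRNA genes measured, of which 28 are ligands and 23 are receptors. The remaining one, UNC50, is a Golgi membrane protein that shares only its first letters with the UNC5 receptors, and it was kept because the rule finds it. The prefixes matched 56 genes in all, and the threshold lay between NTN3 (mean 0.518 TPM), the lowest inside it, and SLITRK2 (0.467 TPM), a synaptic adhesion protein and the highest outside it. EPHA1, SEMA4G and EPHA6 were the others below it.

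The tissue was the breast muscle of domestic pigeons (Columba livia) of the White-King strain, with 3 libraries each from birds aged 1 day (1D), 14 days (14D) and 28 days (28D), and no treatment or genotype difference is named. The fourth stage of the design, 2 years (2Y), was not analysed here. Values are TPM, the authors' length-scaled share of all transcripts in a library, so levels of different genes can be set side by side, while the depth of each library is unknown. Nothing in the labels ties a library to a bird of its own, so p-values measure the spread between libraries, which may be technical. In whole muscle fewer cells of a type and less RNA per cell cannot be told apart.

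As background, class 3 semaphorins are secreted and act through neuropilins paired with plexins, whereas the other vertebrate semaphorins are membrane-bound and mostly bind plexins directly. Ephrins are membrane-tethered ligands of the Eph receptor tyrosine kinases, slits are large secreted ligands of the roundabout (ROBO) receptors, and netrins act through DCC, neogenin and the UNC5 receptors. In skeletal muscle these families are known from work in mouse and chick on motor axon pathfinding, on muscle precursor migration and, for the members carried by endothelial cells, on vessel growth.

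The libraries carried the transcripts of skeletal muscle, with a sum over 17 fibre markers of 49822 to 60126 TPM at 1D, 73600.1 to 79552 TPM at 14D and 75219 to 78021 TPM at 28D. Markers of other cell types moved with age. Endothelial markers (13 measured) summed to 665 to 821 TPM at 1D, 783 to 1583 TPM at 14D and 1167 to 1274 TPM at 28D, and 9 of them rose from 1D to 28D, PECAM1 and VWF among them, while CDH5, CD34, ERG and FLT4 did not pass. The highest of these sums, 1583 TPM, was that of 14D replicate 2, against 783 and 916 TPM in the other 14D libraries. Fibroblast and tendon markers (9 measured) summed to 7305 to 9064 TPM at 1D and 1003 to 1097 TPM at 28D, and 9 of 9 fell. Markers of Schwann cells and nerve (11 measured, 10 tested) summed to 383 to 526 TPM at 1D and 139 to 146 TPM at 28D, and 8 fell. Those of macrophages (6 measured) summed to 37.4 to 46.9 TPM at 1D and 120 to 215 TPM at 28D, and 4 rose. Those of muscle precursors (9 measured) summed to 621 to 878 TPM at 1D and 298 to 325 TPM at 28D, and 5 fell. From 1D to 28D 43.9% of all genes tested fell and 16.4% rose. The part of these shifts in the changes below was not tested beyond the values given.

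Each gene was tested with limma on log2(TPM + 1) over the whole mRNA table. A change counts as called where its p, adjusted by Benjamini-Hochberg over the 11951 genes that reached 1 TPM in 3 or more libraries, was below 0.05. Of the 52 guidance genes 48 passed this filter, and EFNA3, EFNA5, NTN3 and SEMA4A did not. SLIT3 and ROBO2 reached 1 TPM in the 1D libraries alone, and NTN1 in 14D and 28D libraries alone. These 3 could thus pass the filter only through the stages at which they were high. ROBO1 and UNC5A reached 1 TPM in 4 libraries and PLXNB1 in 5, all 1D libraries among them. Without the 1D libraries, where they were high, they would not have passed either. SLIT1 reached 1 TPM in 3 libraries, of 1D and 14D alone, so it too was tested only through stages at which it was higher. Between 1D and 14D 20 of the 48 fell and 7 rose, against 39.2% and 13.6% of all genes tested. Between 1D and 28D 23 fell and 12 rose, against 43.9% and 16.4% of all genes tested. The shares of members, 41.7% and 14.6% at 14D and 47.9% and 25% at 28D, thus lay near those of all genes at 14D, and of these 4 shares the one that rose by 28D was the farthest from its background. The median log2 change of the 48 was -0.43 at 14D and -0.51 at 28D, and that of all genes tested was -0.31 and -0.38. From 14D to 28D limma called 0 members higher (0.544% of all genes) and 1 lower, PLXNA4 (0.87% of all genes), while 6 were higher and 9 lower at an unadjusted p below 0.05, against 6.17% and 9.7% of all genes. With all stages in an F test, 36 of the 48 were called, against 58.4% of all genes.

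After each library was rescaled by its median ratio, which centres all genes near 0, 13 members were higher and 15 lower at 14D (24.5% and 25.9% of all genes) and 14 higher and 20 lower at 28D (28.5% and 29.6% of all genes). The shares of members were then 29.2% higher and 41.7% lower at 28D, the rises close to the background and the falls above it. Among these falls, however, are ROBO1, ROBO2, SLIT3, UNC5A and PLXNB1, which passed the filter only through the 1D libraries, where they were high. The share without them was not computed, so the excess of falls is not read as a trait of the members. Between 14D and 28D the rescaled values again gave 0 higher and 1 lower (0.937% and 0.887% of all genes), and the F test called 32 (55.8% of all genes). No called member change turned its direction under that or any other alternative fit, though several of those fits could not alter a direction. As deposited, 19 members were lower at both later stages than at 1D (36.6% of all genes), 6 were higher at both (11.6%) and 11 were called in no comparison (35.1%). After rescaling 14 were lower at both (23.5% of all genes) and 11 higher at both (21.7%). The 14D and 28D comparisons share the 1D libraries, so their values are given side by side and are not independent. The heat map shows the members by family.

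**Figure D1:**
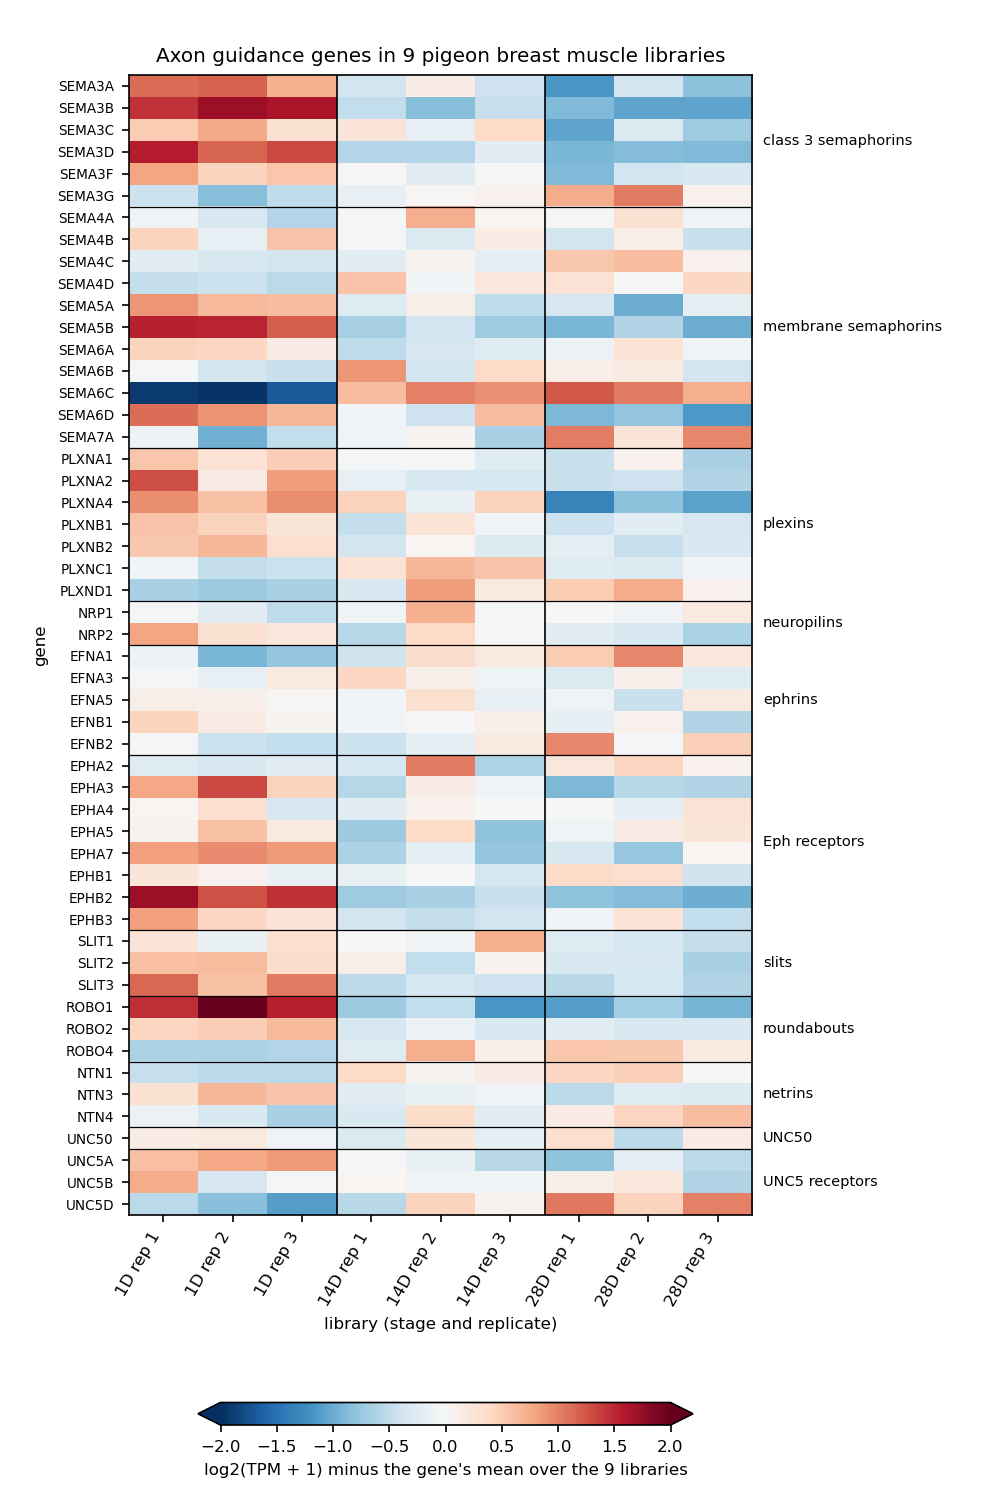
Level of the 52 genes (rows, by family) in the 9 libraries (columns), as log2(TPM + 1) minus the gene's own mean; red is above that mean and blue below. SEMA3A, SEMA3B, EPHB2 and ROBO1 are among the rows that are red at 1D, and SEMA6C, PLXND1, ROBO4, EFNA1 and UNC5D among those that are blue there.

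Among the secreted class 3 semaphorins, 5 of 6 measured members fell by 28D and the other, SEMA3G, rose. The shares of all genes tested were 43.9% and 16.4%. SEMA3A, the prototype repellent of sensory and motor axons, had 25.9, 27 and 19.3 TPM in the 1D libraries, 8.6, 12.7 and 8.28 TPM at 14D and 4.49, 8.45 and 5.97 TPM at 28D. The 1D libraries lay above all later ones, and the level fell at 14D (log2 change -1.22, SE 0.24, adjusted p = 0.00169) and was lower than at 1D at 28D too (log2 change -1.80, SE 0.24, adjusted p = 0.000104). SEMA3B had 9.2, 11.3 and 10.6 TPM at 1D, 1.67, 1.07 and 1.74 TPM at 14D and 1.04, 0.802 and 0.805 TPM at 28D. This was the steepest fall of the family, complete for the most part by 14D (log2 change -2.20, SE 0.17, adjusted p = 8.18e-06), with a log2 change of -2.59 at 28D. SEMA3D followed the same course, from 18.7, 14 and 15.6 TPM at 1D to 3.46, 3.44 and 4.7 TPM at 14D and 2.53, 2.66 and 2.63 TPM at 28D (log2 change -2.23, SE 0.17, adjusted p = 3.26e-06 for 28D vs 1D).

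SEMA3C, the most abundant of the class and an attractant for several cell types, kept its level longer. It had 67.8, 80.4 and 58.4 TPM at 1D, 56.7, 42.1 and 62.7 TPM at 14D and 22.3, 38.6 and 28.4 TPM at 28D. The 1D and 14D libraries overlapped (adjusted p = 0.201), whereas the 28D libraries lay below both, with a fall from 1D (log2 change -1.21, SE 0.22, adjusted p = 0.000934) and a step from 14D that did not pass (adjusted p = 0.0933). SEMA3F, a ligand of neuropilin 2, fell from 46.8 ± 5.84 to 29.1 ± 2.74 and 21.1 ± 4.5 TPM (mean ± SD, n = 3 per stage, as throughout), and its call at 14D was lost after rescaling (adjusted p = 0.22). SEMA3G, which in mouse is made largely by arterial endothelium, had 8.44, 6.05 and 7.95 TPM at 1D, 10.4, 11.9 and 12.5 TPM at 14D and 20.2, 25.2 and 12.5 TPM at 28D. Its later libraries all lay above those of 1D, and the rise passed at 28D (log2 change 1.22, SE 0.23, adjusted p = 0.00122) but not at 14D (adjusted p = 0.0591), where it passed after rescaling (0.0105), without 28D replicate 2 or 3, and with only 1D and 14D fitted. Per 100 TPM of summed endothelial markers SEMA3G stood at 0.737 to 1.2 TPM at 1D and 1.07 to 1.98 TPM at 28D, ranges that overlap. Summed over the other 5 genes, class 3 transcripts went from 166 ± 14.9 TPM (1D) through 98.1 ± 11.6 TPM (14D) to 60.7 ± 13.7 TPM (28D).

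Membrane semaphorins split: of 10 tested members 4 rose and 3 fell by 28D, also after rescaling. At 14D 2 rose and 4 fell as deposited, and 4 rose and 2 fell after rescaling. Of all genes 16.4% rose and 43.9% fell by 28D as deposited, and 28.5% and 29.6% after rescaling. The shares at 14D were 13.6% and 39.2%, and 24.5% and 25.9% after rescaling. SEMA6C had the largest rise of all 48 members tested. It had 4.27, 4.06 and 5.17 TPM at 1D, 29.3, 38.6 and 36.3 TPM at 14D and 46, 39.9 and 31.9 TPM at 28D. All later libraries lay far above those of 1D, with no difference called between the later stages (log2 change 2.70, SE 0.18, adjusted p = 3.57e-06 for 14D vs 1D; adjusted p = 0.715 for 28D vs 14D). Its paralogue SEMA6D, a ligand of PLXNA1 in chick heart, went the other way, with 59.7, 51.3 and 43.5 TPM at 1D, 26.1, 20.1 and 42.1 TPM at 14D and 14, 15.3 and 11.6 TPM at 28D. The libraries of the 3 stages did not overlap, and the fall passed at 28D (log2 change -1.84, SE 0.24, adjusted p = 0.000113), whereas at 14D it passed as deposited (adjusted p = 0.015) but not after rescaling (adjusted p = 0.165) or without 1D replicate 1 (adjusted p = 0.0602).

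SEMA5B, a thrombospondin-repeat semaphorin, had 10.7, 10.6 and 8.34 TPM at 1D, 1.55, 2.09 and 1.45 TPM at 14D and 1.15, 1.65 and 1.03 TPM at 28D. The drop was complete by 14D (log2 change -2.01, SE 0.18, adjusted p = 1.8e-05). SEMA5A, of the same class, fell from 15.3 ± 1.7 to 6.16 ± 1.94 TPM (log2 change -1.22, SE 0.24, adjusted p = 0.00128). SEMA7A, a lipid-anchored semaphorin that signals through integrins and PLXNC1, was the most abundant membrane semaphorin by mean, with 27.5, 14.8 and 20.8 TPM at 1D, 28.2, 30.8 and 18.6 TPM at 14D and 61.3, 35.7 and 58.7 TPM at 28D. The 28D libraries stood above all others (log2 change 1.27, SE 0.28, adjusted p = 0.00275 for 28D vs 1D, adjusted p = 0.122 for 28D vs 14D). SEMA4C, a ligand of PLXNB2, rose from 8.22 ± 0.532 to 14.4 ± 2.83 TPM, and SEMA4D, a ligand of PLXNB1, from 4.04 ± 0.178 to 7.32 ± 1.18 TPM. SEMA6A was lower at 14D (19.1 ± 2.04 to 11.3 ± 1.09 TPM, adjusted p = 0.00385, or 0.0714 after rescaling) and not called at 28D (15.3 ± 2.38 TPM). SEMA6B was called in no comparison, with 22.2, 17.5 and 16.5 TPM at 1D, 42.8, 17.3 and 30.5 TPM at 14D and 25, 25.9 and 17.4 TPM at 28D. Its 14D libraries alone spanned more than the range of the other stages, and at 14D it was higher than at 1D after rescaling (adjusted p = 0.0366) and without 14D replicate 2 (adjusted p = 0.00834). SEMA4B (4.65 ± 1.43 TPM at 1D and 2.92 ± 0.883 TPM at 28D) was called lower at 28D only without 1D replicate 2 or 28D replicate 2 (adjusted p = 0.0235 and 0.0386), and SEMA4A, untested, had 0.382 ± 0.248, 1.09 ± 0.642 and 0.83 ± 0.252 TPM at the 3 stages.

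**Figure D2:**
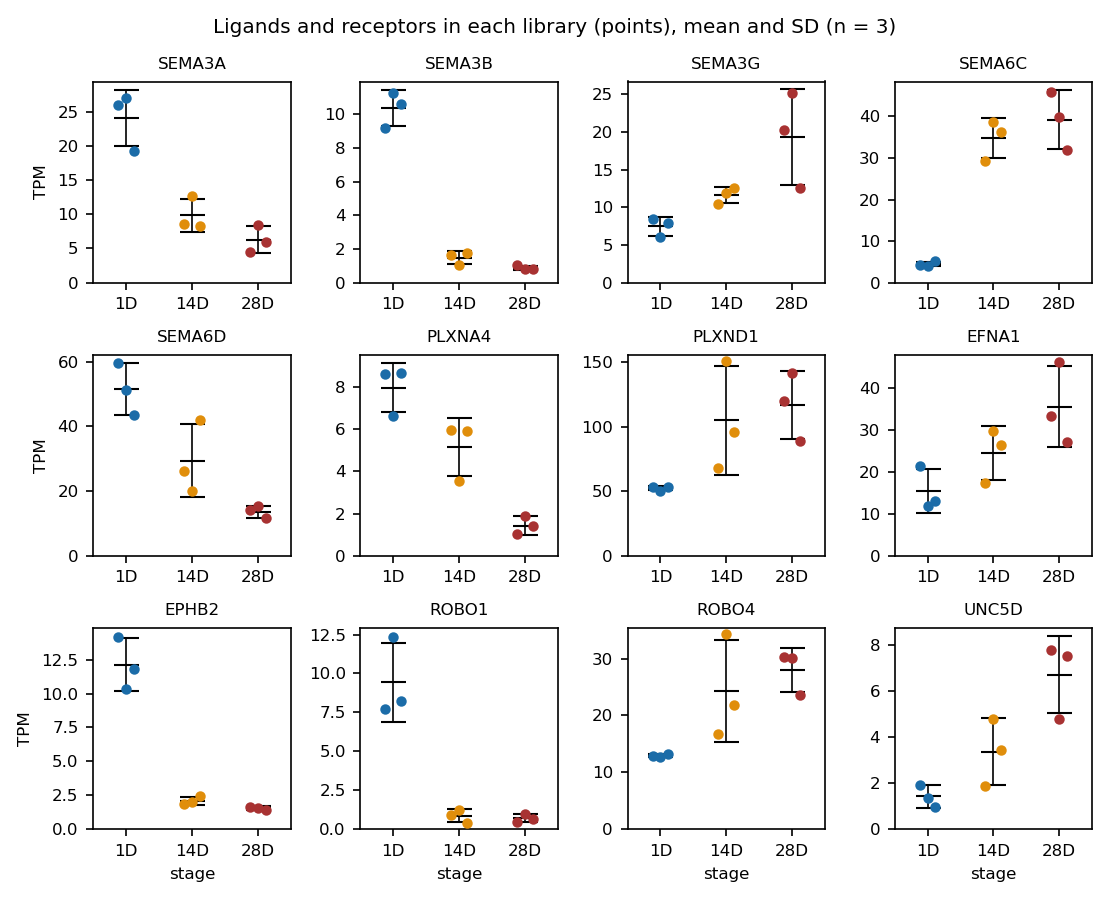
TPM (vertical axes, each from 0) of 12 ligands and receptors in each library (points) by stage, with the mean and SD of 3 libraries. SEMA3A, SEMA3B, SEMA6D, PLXNA4, EPHB2 and ROBO1 are highest at 1D, and SEMA3G, SEMA6C, PLXND1, EFNA1, ROBO4 and UNC5D are lowest there.

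Plexins, the signal-transducing receptors of semaphorins, fell by 28D in 5 of 7 members (4 after rescaling, which ended the call of PLXNA1) and rose in 1, PLXND1. Beside them 43.9% of all genes fell and 16.4% rose, and 29.6% and 28.5% after rescaling. PLXNB1, among those that fell, passed the filter only through the 1D libraries, where it was high. PLXNA4, a partner of neuropilin 1 for SEMA3A, had 8.61, 6.62 and 8.65 TPM at 1D, 5.95, 3.55 and 5.93 TPM at 14D and 1.01, 1.87 and 1.42 TPM at 28D. It was the only member called between the later stages, with no overlap among the 3 stages (log2 change -1.32, SE 0.22, adjusted p = 0.0207 for 28D vs 14D). That call was lost without 14D replicate 3, 28D replicate 1 or 28D replicate 3 (adjusted p = 0.0805, 0.0705 and 0.0742) and when the 1D libraries were left out of the fit (adjusted p = 0.0763). The fall from 1D to 28D was larger (log2 change -1.89, SE 0.22, adjusted p = 4.58e-05). PLXNA2 had 14.5, 6.08 and 10.4 TPM at 1D, 4.64, 4.09 and 3.98 TPM at 14D and 3.67, 3.78 and 3.16 TPM at 28D. Its 1D libraries spread widely yet all lay above the later ones (log2 change -1.25, SE 0.25, adjusted p = 0.00153). PLXNA1, a receptor subunit shared by SEMA3A and SEMA6D, fell from 17.1 ± 1.65 to 9.77 ± 2.97 TPM, PLXNB1 from 2.02 ± 0.34 to 0.789 ± 0.132 TPM and PLXNB2 from 11.4 ± 1.4 to 5.98 ± 0.682 TPM. The fall of PLXNA1 at 14D (adjusted p = 0.0376) was lost after rescaling (adjusted p = 0.408) and without 1D replicate 1 or 3 or any one 14D library (adjusted p up to 0.115). PLXNC1, the receptor of SEMA7A, was high at 14D alone, with 2.0 ± 0.493, 4.32 ± 0.696 and 2.25 ± 0.271 TPM at the 3 stages (log2 change 0.83, SE 0.18, adjusted p = 0.00317 for 14D vs 1D, adjusted p = 0.0854 for 28D vs 14D).

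PLXND1, the plexin of vascular endothelium, had 53.3, 50.3 and 53.4 TPM at 1D, 67.9, 151 and 95.9 TPM at 14D and 119.8, 141 and 89 TPM at 28D. The 1D libraries were tightly grouped below all others, and 14D replicate 2 gave the highest value (log2 change 1.12, SE 0.26, adjusted p = 0.004 for 28D vs 1D; adjusted p = 0.0141 for 14D vs 1D and 0.0385 without that library). Its share of all plexin transcripts (mean ± SD, n = 3) went from 50.9% ± 2.7 at 1D through 74.7% ± 6.94 at 14D to 82.9% ± 1.92 at 28D. Per 100 TPM of summed endothelial markers PLXND1 stood at 6.12 to 8.04 TPM at 1D, 8.67 to 10.5 TPM at 14D and 7.62 to 11.1 TPM at 28D, and the 1D and 28D ranges overlap on that scale. The neuropilins, co-receptors for class 3 semaphorins and for vascular endothelial growth factor, were among the most abundant members. NRP1, with the highest mean of the 52, had 90.0, 78.4 and 64.5 TPM at 1D, 87.1, 150.1 and 90.4 TPM at 14D and 92.7, 87.7 and 106 TPM at 28D. All stages overlapped and no comparison passed as deposited (adjusted p = 0.101 and 0.246 against 1D), while after rescaling NRP1 was higher at both later stages (adjusted p = 0.00315 and 0.00501). Per 100 TPM of endothelial markers NRP1 instead stood lower at 28D, at 6.88 to 9.05 TPM, than at 1D, at 9.54 to 12.3 TPM, with no overlap. NRP2, which binds SEMA3F and SEMA3C, had 68, 47.9 and 45.8 TPM at 1D, 25.7, 51.5 and 39.2 TPM at 14D and 32.9, 31.3 and 24.5 TPM at 28D. Its 28D libraries lay below those of 1D (log2 change -0.83, SE 0.25, adjusted p = 0.015), a call that was lost after rescaling (adjusted p = 0.121) and without 1D replicate 1 or 28D replicate 3 (adjusted p = 0.066 and 0.0554).

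**Figure D3:**
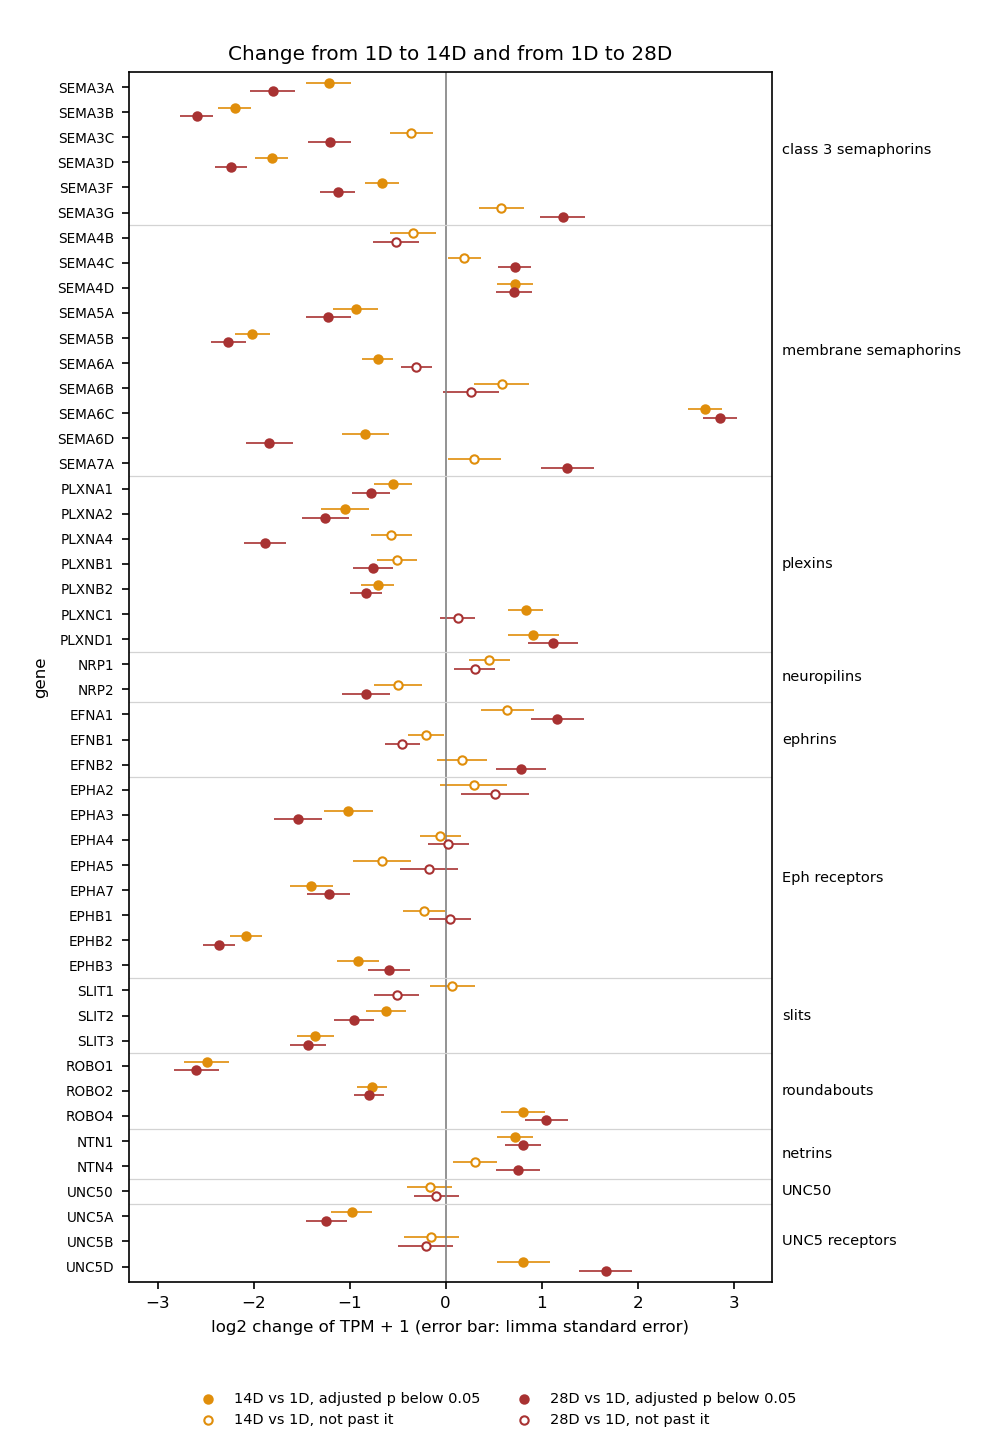
Log2 change of TPM + 1 (horizontal axis, bars are limma standard errors) for the 48 tested genes, 14D vs 1D in orange and 28D vs 1D in red, filled where the adjusted p was below 0.05. The semaphorins, plexins, neuropilins, Eph receptors, slits, roundabouts and UNC5 receptors hold filled points on the left. The semaphorins, plexins, ephrins, roundabouts, netrins and UNC5 receptors hold them on the right, where SEMA6C stands farthest.

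Of 3 tested ephrins 2 rose by 28D, also after rescaling. Of 8 tested Eph receptors 4 fell (3 after rescaling, with 1 then higher). Among all genes 43.9% fell and 16.4% rose by 28D, and 29.6% and 28.5% after rescaling. EFNA1, an ephrin induced by inflammatory cytokines in endothelium, had 21.4, 11.9 and 13.1 TPM at 1D, 17.3, 29.8 and 26.4 TPM at 14D and 33.4, 46.2 and 27.1 TPM at 28D. The 28D libraries lay above those of 1D (log2 change 1.16, SE 0.28, adjusted p = 0.00419), with 14D between them (adjusted p = 0.0733 against 1D, 0.0105 after rescaling, 0.0269 without 1D replicate 1 and 0.0277 without 14D replicate 1). EFNB2, the arterial ephrin, had 10.1, 7.43 and 7.14 TPM at 1D, 7.48, 8.91 and 11.9 TPM at 14D and 21.2, 10.2 and 14.9 TPM at 28D. Its lowest 28D library barely cleared the highest 1D library (log2 change 0.79, SE 0.26, adjusted p = 0.0236), and the call was lost without 1D replicate 2, 1D replicate 3, 28D replicate 1 or 28D replicate 3 (adjusted p up to 0.0932). Per 100 TPM of endothelial markers EFNA1 stood at 1.45 to 2.93 TPM at 1D and 2.32 to 3.62 TPM at 28D, and EFNB2 at 0.905 to 1.39 and 0.797 to 1.75 TPM, so that in both the ranges overlapped. EFNB1, the most abundant ephrin, was called in no comparison, with 57, 46.4 and 43.1 TPM at 1D, 39.8, 41.1 and 44.8 TPM at 14D and 36.7, 44 and 27 TPM at 28D. Its libraries overlapped at every stage, and without 28D replicate 2 it was lower at 28D than at 1D (adjusted p = 0.0172). EFNA3 and EFNA5 were untested, with stage means between 0.50 and 0.834 TPM and between 0.615 and 0.826 TPM.

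EPHB2, a receptor of B-type ephrins, showed the steepest fall among Eph receptors. It had 14.2, 10.3 and 11.8 TPM at 1D, 1.85, 1.99 and 2.42 TPM at 14D and 1.66, 1.57 and 1.38 TPM at 28D. The 1D libraries stood far above the rest, and the fall was nearly complete by 14D (log2 change -2.08, SE 0.17, adjusted p = 9.57e-06). EPHA3, which binds A-type ephrins, had 9.56, 14.4 and 7.47 TPM at 1D, 3.17, 5.82 and 4.89 TPM at 14D and 2.33, 3.16 and 3.08 TPM at 28D. No library of one stage overlapped another stage, though the lowest 14D library (3.171 TPM) barely cleared the highest 28D library (3.164 TPM). The fall from 1D to 28D passed (log2 change -1.54, SE 0.25, adjusted p = 0.00045), and the step from 14D to 28D did not (adjusted p = 0.35). EPHA7 had 10.1, 11.2 and 10.4 TPM at 1D, 3.09, 4.57 and 2.72 TPM at 14D and 4.07, 2.74 and 5.51 TPM at 28D. The fall passed at 14D (log2 change -1.40, SE 0.23, adjusted p = 0.00054), and the later stages overlapped. EPHB3 was lower at 14D (9.55 ± 2.14 to 4.53 ± 0.226 TPM, adjusted p = 0.00524). Its call at 28D (6.07 ± 1.84 TPM, adjusted p = 0.0363) was lost after rescaling (adjusted p = 0.4) and, as deposited, with only 1D and 28D fitted (adjusted p = 0.0547). That call was also lost without 1D replicate 1 or 2 or 28D replicate 1 or 3 (adjusted p up to 0.139). EPHB1, the most abundant Eph receptor, had 35.2, 31.5 and 26.5 TPM at 1D, 26.7, 29.9 and 22.9 TPM at 14D and 38.7, 37.8 and 22.1 TPM at 28D. These libraries overlapped across stages and no comparison passed (adjusted p = 0.867 for 28D vs 1D). EPHA2 (3.32 ± 0.155 and 5.2 ± 0.761 TPM), EPHA4 (1.58 ± 0.578 and 1.61 ± 0.434 TPM) and EPHA5 (3.93 ± 0.955 and 3.35 ± 0.505 TPM at 1D and 28D) were not called as deposited, and EPHA2 was higher at 28D after rescaling (adjusted p = 0.0466). For EPHA2 the value of 14D replicate 2, 9.69 TPM, was the highest of all 9 libraries, and without that library EPHA2 was called higher at 28D (adjusted p = 0.0188). EPHA5 was likewise called lower at 14D once 14D replicate 2 was left out (adjusted p = 0.0026).

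Of the roundabouts ROBO1 and ROBO2 fell and ROBO4 rose, and of the slits SLIT2 and SLIT3 fell. By 28D 43.9% of all genes fell and 16.4% rose. ROBO1, ROBO2 and SLIT3 passed the filter only through the 1D libraries, where they were high. The filter thus favoured their falls over rises. ROBO1, the widely expressed slit receptor of axons and mesenchyme, had 7.7, 12.3 and 8.25 TPM at 1D, 0.907, 1.25 and 0.414 TPM at 14D and 0.469, 0.983 and 0.663 TPM at 28D. All 6 later libraries lay far below those of 1D (log2 change -2.49, SE 0.23, adjusted p = 2.18e-05 for 14D vs 1D and -2.60 on the log2 scale for 28D vs 1D). ROBO2 had 1.14, 1.23 and 1.48 TPM at 1D, 0.273, 0.468 and 0.28 TPM at 14D and 0.373, 0.287 and 0.271 TPM at 28D. It fell at the same step from a low level (log2 change -0.77, SE 0.16, adjusted p = 0.00243). ROBO4, the endothelial roundabout, had 12.8, 12.7 and 13.2 TPM at 1D, 16.8, 34.3 and 21.8 TPM at 14D and 30.3, 30.2 and 23.6 TPM at 28D. Every later library lay above the 3 closely grouped 1D libraries (log2 change 1.05, SE 0.23, adjusted p = 0.00252), and at 14D the rise passed with and without 14D replicate 2 (adjusted p = 0.0132 and 0.0288).

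Of the summed roundabout transcripts ROBO4 made up 55.1% ± 5.8 (mean ± SD, n = 3) at 1D, then 95.2% ± 1.75 at 14D and 96.5% ± 0.714 at 28D, shares that a common scale of a library cannot move. Set against the endothelial markers it was 1.55 to 1.99 TPM per 100 TPM at 1D, 2.14 to 2.38 at 14D and 2.02 to 2.5 at 28D, the later ranges lying just above that of 1D. Of the ligands, SLIT3 had 3.66, 2.15 and 3.31 TPM at 1D, 0.459, 0.644 and 0.575 TPM at 14D and 0.426, 0.643 and 0.378 TPM at 28D. Its fall was complete by 14D (log2 change -1.36, SE 0.19, adjusted p = 0.00022), in a gene tested only through the 1D libraries, where it was high. SLIT2 had 3.15, 3.23 and 2.48 TPM at 1D, 2.02, 0.94 and 1.88 TPM at 14D and 1.19, 1.21 and 0.75 TPM at 28D. The fall passed at 28D (log2 change -0.95, SE 0.21, adjusted p = 0.0027), and the call at 14D (adjusted p = 0.0289) was lost after rescaling (adjusted p = 0.21) and without 1D replicate 1, 1D replicate 2 or 14D replicate 2 (adjusted p = 0.0907, 0.0949 and 0.0896). SLIT1 was called in no comparison, with 1.09, 0.595 and 1.2 TPM at 1D, 0.76, 0.676 and 1.88 TPM at 14D and 0.47, 0.372 and 0.266 TPM at 28D, the 28D libraries being the lowest. The slits together came to 6.96 ± 0.961 TPM (1D), 3.28 ± 1.04 TPM (14D) and 1.9 ± 0.445 TPM (28D), which is low beside the class 3 semaphorins.

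Both tested netrins rose by 28D, from low levels, beside 16.4% of all genes. NTN1 reached 1 TPM at 14D and 28D alone, so it was tested only through the stages at which it was high. NTN3, lower at the later stages, was left out by the same filter. NTN1, the classical bifunctional cue, had 0.359, 0.301 and 0.287 TPM at 1D, 1.48, 0.953 and 1.11 TPM at 14D and 1.48, 1.62 and 0.867 TPM at 28D. All later libraries lay above those of 1D (log2 change 0.81, SE 0.18, adjusted p = 0.00349). NTN4, a basement membrane netrin that binds laminin, had 3.54, 2.97 and 2.13 TPM at 1D, 2.96, 5.31 and 3.25 TPM at 14D and 4.48, 5.59 and 6.48 TPM at 28D. The rise passed at 28D (log2 change 0.75, SE 0.23, adjusted p = 0.015), but not without 1D replicate 3 or 28D replicate 3 (adjusted p = 0.0634 and 0.0558). NTN3, untested because it passed the filter level in too few libraries, had 0.805, 1.31 and 1.16 TPM at 1D, 0.248, 0.311 and 0.392 TPM at 14D and 0, 0.227 and 0.203 TPM at 28D, with each 1D library above all later ones.

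Of the UNC5 receptors, which convert netrin signals to repulsion, 1 rose and 1 fell. UNC5A, which fell, passed the filter only through the 1D libraries, where it was high. UNC5D had 1.92, 1.37 and 0.964 TPM at 1D, 1.87, 4.77 and 3.43 TPM at 14D and 7.8, 4.79 and 7.53 TPM at 28D. The 28D libraries stood above those of 1D (log2 change 1.67, SE 0.28, adjusted p = 0.000503 for 28D vs 1D). The lowest of them (4.792 TPM) barely cleared 14D replicate 2 (4.773 TPM), and the step from 14D to 28D did not pass (adjusted p = 0.167). The 14D call (adjusted p = 0.0318) was lost without any one of 1D replicate 2, 1D replicate 3, 14D replicate 2 and 14D replicate 3 (adjusted p up to 0.112). UNC5A had 2.34, 2.74 and 2.96 TPM at 1D, 1.18, 0.979 and 0.503 TPM at 14D and 0.257, 0.947 and 0.53 TPM at 28D, with the 1D libraries above all later ones (log2 change -1.24, SE 0.21, adjusted p = 0.000599). UNC5B, known from endothelium in mouse, was called in no comparison, with 9.26, 3.88 and 4.97 TPM at 1D, 5.33, 4.84 and 4.94 TPM at 14D and 5.66, 6.16 and 3.07 TPM at 28D. UNC50, the Golgi protein, had 9.63 ± 0.998, 8.56 ± 1.94 and 9.19 ± 2.87 TPM at the 3 stages and was not called either. By role, 9 of 24 tested ligands rose and 10 fell between 1D and 28D, and 3 of 23 tested receptors rose and 13 fell, beside 16.4% of all genes that rose and 43.9% that fell. The filter shaped these counts. The falls of the receptors ROBO1, ROBO2, UNC5A and PLXNB1 and of the ligand SLIT3 were tested only through the 1D libraries, where they were high. The rise of the ligand NTN1 was tested only through the later stages, and the untested EFNA3, EFNA5, NTN3 and SEMA4A are all ligands. After rescaling, when 28.5% of all genes rose and 29.6% fell, every member call that changed at 28D was of a receptor. The rises of NRP1 and EPHA2 were gained, and the falls of PLXNA1, NRP2 and EPHB3 were lost. The difference between ligands and receptors was thus smaller on that scale, and it was not tested.

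**Figure D4:**
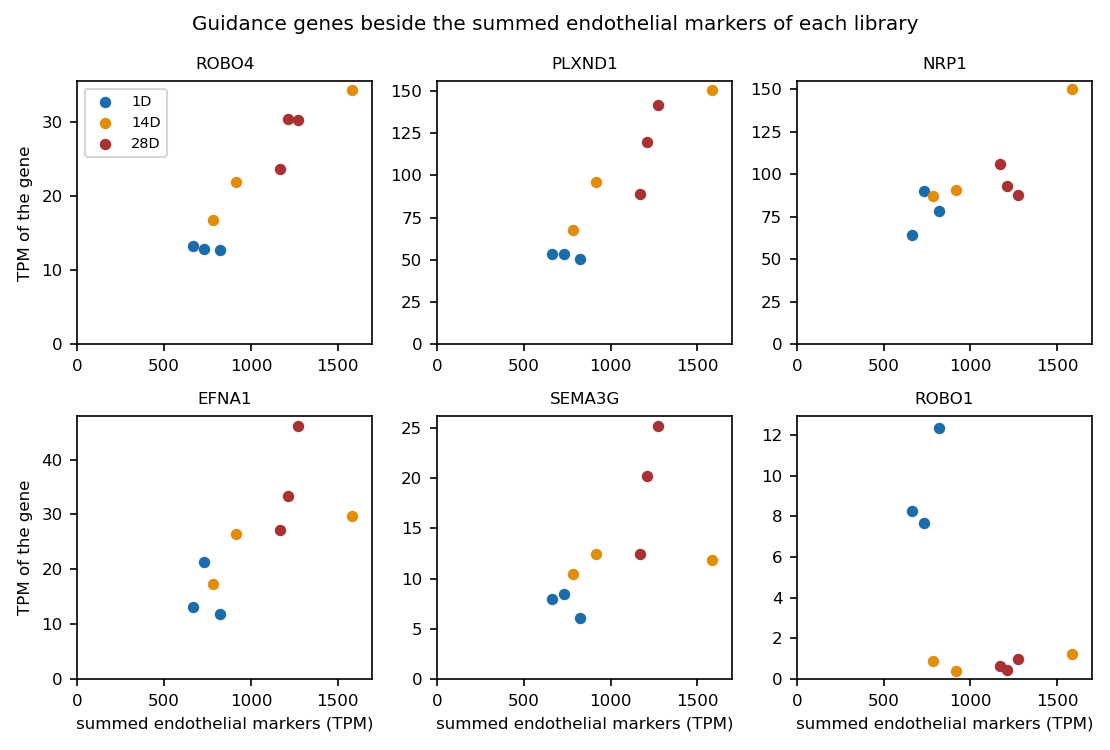
TPM of 6 members (vertical axes) against the summed TPM of 13 endothelial markers in the same library (horizontal axes), one point per library, coloured by stage. ROBO4 and PLXND1 are high where the marker sum is high, 14D replicate 2 being the point farthest to the right at 1583 TPM, and ROBO1 is high at 1D alone.

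The falls ran beside those of connective tissue markers to different degrees. Per 100 TPM of summed fibroblast and tendon markers, SEMA3D stood at 0.181 to 0.213 TPM at 1D and 0.238 to 0.265 TPM at 28D, and EPHB2 at 0.134 to 0.162 and 0.126 to 0.156 TPM. SEMA3A stood at 0.265 to 0.35 and 0.422 to 0.842 TPM on that scale and EPHA3 at 0.102 to 0.187 and 0.219 to 0.315 TPM, both higher at 28D. SEMA3B stood at 0.102 to 0.146 TPM at 1D and 0.0734 to 0.0978 TPM at 28D. By 28D SEMA3A, SEMA3D and EPHA3 had thus fallen less than the summed markers and SEMA3B more. The single markers fell unequally by 28D, with log2 changes from -4.11 (COL1A1) to -1.87 (FBN1). These readings therefore hold for the sum and not for each marker. At 14D EPHB2 (0.0897 to 0.12 TPM) and ROBO1 (0.0204 to 0.0563 TPM, from 0.0849 to 0.16 TPM at 1D) lay below their 1D ranges on this scale. By 28D both overlapped their 1D ranges, ROBO1 at 0.0441 to 0.098 TPM. Per 100 TPM of Schwann cell and nerve markers EPHB2 went from between 1.96 and 3.21 TPM at 1D to between 0.997 and 1.17 TPM at 28D. SEMA3B on that scale stood at 2.08 to 2.76 TPM at 1D and 0.549 to 0.731 TPM at 28D, also lower, whereas PLXNB2 was higher at 28D (3.61 to 4.66 TPM) than at 1D (2.42 to 2.62 TPM).

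Other genes of the guidance pathways were taken from 2 lists. Of 24 tested co-receptors and other cues 12 fell and 1 rose between 1D and 28D, and 13 fell and 2 rose by 14D, beside 43.9% lower and 16.4% higher of all genes at 28D and 39.2% and 13.6% at 14D. GFRA1 and FLRT3 reached 1 TPM in the 1D libraries alone, so both could pass the filter only through the stage at which they were high. GFRA1, a receptor for glial cell line-derived neurotrophic factor, fell from 9.57 ± 1.46 TPM (1D) to 0.188 ± 0.106 TPM (14D) and 0.0398 ± 0.014 TPM (28D) (log2 change -3.34, SE 0.17, adjusted p = 3.89e-07). NCAM1, the neural cell adhesion molecule, fell at each step, from 28.8 ± 2.2 to 10.3 ± 1.78 and 4.62 ± 0.266 TPM (adjusted p = 5.23e-05 and 0.0178). FLRT3, an adhesion protein that binds UNC5 receptors and ROBO1, fell from 4.86 ± 0.927 to 0.417 ± 0.166 TPM. NEO1, the netrin receptor neogenin, named after its values were seen, fell from 12.9 ± 1.2 to 7.26 ± 0.691 TPM (adjusted p = 0.00446). The single rise at 28D was that of KDR, a receptor for vascular endothelial growth factor that also stands among the endothelial markers (16 ± 3.69 to 33.3 ± 2.74 TPM).

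Of 68 tested intracellular effectors 27 fell and 7 rose by 28D, with a median log2 change of -0.41, beside 43.9% and 16.4% of all genes and a median of -0.38. DPYSL5, a collapsin response mediator that acts below semaphorin receptors, fell from 6.75 ± 1.32 to 0.778 ± 0.401 TPM. Like DPYSL5, the other effector described is among those that fell. SRGAP1, a GTPase-activating protein that binds ROBO1, fell from 32.8 ± 7.17 to 7.17 ± 1.3 TPM (log2 change -2.04, SE 0.22, adjusted p = 3.11e-05).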

How the data were processed

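Trizol extracts of total RNA from frozen breast muscle were sequenced on an Illumina instrument, per the labels' protocols. STAR 2.6.0c and Cufflinks 2.1.1 are named in the submitters' processing notes, while the role of each, the build, the annotation and how expression was computed are not given in the sources used here. TPM values were deposited by the authors for 12918 mRNA genes and, in a second table, for 9158 lncRNAs, in which no symbol matched the prefixes (0 genes); both tables together sum to 991186 to 993735 TPM per library. The mRNA table alone summed to 835976 to 844829 TPM at 1D, 737968 to 787201 TPM at 14D and 761954 to 790319 TPM at 28D. The main tests took its values as deposited, with these unequal totals. TPM keeps no depth, so no counting interval was computed. The columns of 9 libraries were matched by stage and replicate to sample titles; 3 value columns per table matched no title and were not used, so the planned comparison of 2Y with 28D was not run. Symbols came from the RefSeq gene table of assembly bColLiv1.pat.W.v2, which matched 12256 identifiers; as the authors' build is not named, no coordinates are given.

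A linear model with 1 mean per stage was fitted to log2(TPM + 1) of 9 libraries with limma 3.58.1 (R 4.3.3) and a variance trend. Tests were two-sided, on genes that reached 1 TPM in 3 or more libraries, adjusted by Benjamini-Hochberg over 11951 genes. Fold changes on this scale understate those of low genes. In a simulated 14D vs 1D comparison of 11951 genes, limma recovered 53 of 100 planted log2 changes of 1. Of 100 planted log2 changes of 2 it recovered 97, and 8 of its 158 calls were false. Far fewer genes were changed in that simulation than were called between these stages in the real data. With more genes called the Benjamini-Hochberg cut is less strict, so the shares recovered do not carry over to the real comparison. There PLXNA1 was called at a log2 change of -0.55 for 14D vs 1D, while EPHA5 was not called at -0.66. A member that was not called may still have changed. Per family, up to 3 members with the largest called change, the most abundant member and the most abundant uncalled one are given in every library; SEMA3G was added, and means of other members are given, after their values were seen. From each pathway list the rule took up to 3 called members with the largest change, of which 1 is not reported here, and KDR and NEO1 were added after their values were seen. The members, gene lists and marker lists were chosen with earlier results of these data known. Other marker lists gave, between 1D and 28D, 2 higher and 2 lower of 8 for smooth muscle and pericytes, 1 higher and 8 lower of 10 for neuromuscular junction nuclei, 5 lower of 9 for muscle precursors, and 4 higher of 6 for macrophages; of the 17 fibre markers 7 were higher and 4 lower. In that comparison 16.4% of all genes tested were higher and 43.9% lower. Identical libraries were looked for and 0 pairs were found.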

Additional observations from a re-analysis of the deposited data

How the results depend on the processing

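The number of members called was within 1.5 times the reported one under every alternative run except those named here. Members higher at 14D than at 1D numbered 7 as reported, 13 after median-ratio rescaling and 4 with a filter of 5 TPM in 3 libraries, under which fewer genes are tested. The 1 member lower at 28D than at 14D became 0 when only those stages were fitted. Leaving out each library in turn gave 6 to 8 higher and 15 to 21 lower members for 14D vs 1D, 10 to 13 and 19 to 26 for 28D vs 1D, 0 to 0 and 0 to 2 for 28D vs 14D, and 30 to 39 for the F test. In the 28D vs 14D comparison the count was 2 (PLXNA4 and SEMA6D) without 14D replicate 2 and 0 without 14D replicate 3, 28D replicate 1 or 28D replicate 3. Pseudocounts of 0.1 and 0.5, no filter, and a fit without the variance trend moved no count by over 1.5 times. The size of change of low genes depends on the pseudocount: the log2 change of SLIT3, 14D vs 1D was -1.36 as reported and -2.23 with 0.1. Of 63 called member changes 0 reversed under any alternative, while 40 combinations of a change and an alternative lost a call and 27 gained one. Only rescaling, another pseudocount or leaving out a library of a compared stage could have reversed a change. The other fits keep each log2 change as it is. The membership rule gave 45 genes at a mean of 1 TPM and 56 with no threshold.

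Replicate numbers are shared across stages, but same-numbered libraries did not deviate together (correlations of -0.0719 to 0.0466 between their deviations from the stage means), so the number was not taken as a pairing. A fit with the replicate block gave 6 higher and 19 lower members for 14D vs 1D, against 7 and 20, the calls of UNC5D and PLXNA1 being lost (adjusted p = 0.0573 and 0.0501), and 12 and 23 for 28D vs 1D, against 12 and 23. With depth unknown, the counting error of the members that lie near or below 1 TPM cannot be given.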

Other observations

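Ratios of paralogues within a library do not depend on a scale shared by all genes, and 4 pairs, chosen after their values were seen, are given here as a description. The ratio of SEMA6C to SEMA6D was 0.0716, 0.0791 and 0.119 in the 1D libraries, 1.12, 1.92 and 0.863 at 14D and 3.28, 2.61 and 2.74 at 28D, so SEMA6D was the more abundant at 1D and SEMA6C at 28D. The ratio of ROBO4 to ROBO1 was 1.67, 1.03 and 1.6 at 1D, 18.5, 27.5 and 52.8 at 14D and 64.6, 30.7 and 35.5 at 28D. SEMA3G over SEMA3A was 0.326, 0.224 and 0.411 at 1D, 1.21, 0.939 and 1.51 at 14D and 4.5, 2.98 and 2.09 at 28D. PLXND1 over PLXNA4 was 6.19, 7.59 and 6.17 at 1D, 11.4, 42.5 and 16.2 at 14D and 118, 75.5 and 62.8 at 28D. In each pair the 28D libraries lay above all 1D libraries.

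The 28 ligands together came to 416 ± 46.6 TPM (1D), 358 ± 21.6 TPM (14D) and 353 ± 30.4 TPM (28D), as mean ± SD with n = 3. The 23 receptors came to 351 ± 38.8, 370.4 ± 111 and 364 ± 37.1 TPM in the same order. Neither sum was tested. Within 14D the receptor sum was 285 TPM in replicate 1, 495 TPM in replicate 2 and 332 TPM in replicate 3. The ligand sum was 354, 339 and 382 TPM in the same order.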
